A study of Mus musculus with 15 samples.

Results

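The genes described here encode the interleukin-1 family cytokines Il1a, Il1b and Il18, the cytokines Tnf, Il6 and Osm, and the inflammasome components Nlrp3, Pycard and Casp1. They were chosen by symbol from a table of 20610 genes, in which each of the 9 genes had 1 row. The study isolated microglia, neurons and astrocytes with magnetic beads and sequenced their RNA, from male wild-type mice whose cortex was taken on postnatal day 28. Each cell type had 5 libraries, 15 in all. No treatment and no mutant was part of the study, so each comparison is between cell types of the same kind of animal. The values are TPM, a share of all transcripts in a library that is scaled for transcript length, so that levels can be compared between genes of a library. Between libraries, a share also depends on what else each library holds. Calls were therefore also made under median-of-ratios and quantile scaling. The labels tie no library to an animal, so the p-values measure the spread between libraries only.

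Interleukin-1 alpha and beta are cytokines that act through the same receptor, and microglia are the best known source of both in the brain. The beta form, like interleukin-18, is made as an inactive precursor. It is cleaved by caspase-1, the product of Casp1, after a sensor such as NLRP3 has gathered the adaptor ASC, the product of Pycard, into an inflammasome. Interleukin-1 alpha is active without that cleavage. TNF, interleukin-6 and oncostatin M are secreted cytokines that signal through other receptors, the last 2 of them through the shared subunit gp130.

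The labels were first set against marker genes. The summed level of 12 microglia markers was 63749 to 101733 TPM in microglia, 70.4 to 123 TPM in neuron-labelled libraries and 159 to 214 TPM in astrocytes. The 10 astrocyte markers summed to 302 to 671 TPM in microglia, 113 to 278 TPM in neuron-labelled libraries and 21271 to 24452 TPM in astrocytes. The 10 neuronal markers summed to 737 to 1560.5 TPM in neuron-labelled libraries, 12.1 to 108 TPM in microglia and 120 to 255 TPM in astrocytes. The neuronal sum was thus highest under its own label. In those same libraries, however, 9 endothelial markers summed to 27306 to 39808 TPM, against 330 to 708 TPM in microglia and 1890 to 2498 TPM in astrocytes. Ly6c1 and Itm2a led the endothelial sum there, at means of 23317 and 5482 TPM, and Cdh5 was lowest, at 10.1 TPM. Because of the endothelial markers, these libraries are called neuron-labelled here. The 10 oligodendrocyte markers were high in libraries 1 and 2 of microglia, summing to 69786, 52001, 6749, 252 and 8179 TPM in microglia libraries 1 to 5. In neuron-labelled libraries 1 to 5 they summed to 8469, 10369, 212, 236 and 1638 TPM, likewise highest in 1 and 2, and in astrocytes to 445 to 3810.4 TPM. Libraries numbered 1 and 2 also stood apart from those numbered 3 and 4 in every cell type on the third principal component, so the results were also computed without either pair.

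The plain pattern was that 8 of the 9 genes were highest in microglia, and that Il18 was highest in astrocytes. All 9 were higher in microglia than in neuron-labelled libraries, where 9.74% of the 13351 tested genes were called higher in microglia and 29.5% lower. Against astrocytes, 8 were higher in microglia and Il18 was lower, where 10.2% of tested genes were called higher in microglia and 32.3% lower. Between neuron-labelled libraries and astrocytes, Pycard was higher and Il18 lower, where 12.9% of tested genes were called higher and 12.7% lower. Of the genes called between microglia and neuron-labelled libraries, 24.8% were higher in microglia, but 44.2% and 43.7% under median-of-ratios and quantile scaling. Against astrocytes these shares were 23.96%, 46.6% and 44.5%, and the calls of the 9 genes held under both scalings. A gene was called at a Benjamini-Hochberg adjusted p below 0.05 in limma with a difference of at least 1 on the log2(TPM + 1) scale. Of the 9 genes, 5 (Il1a, Tnf, Il6, Osm and Nlrp3) passed the filter on low values through the microglia libraries alone and so had to differ from the other groups. Among the rest, Il1b, Casp1 and Pycard were called higher in microglia in both comparisons. Il18 was called higher in microglia than in neuron-labelled libraries and lower than in astrocytes. In bulk RNA of this kind, fewer cells of a type and less RNA per cell cannot be told apart.

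**Figure D1:**
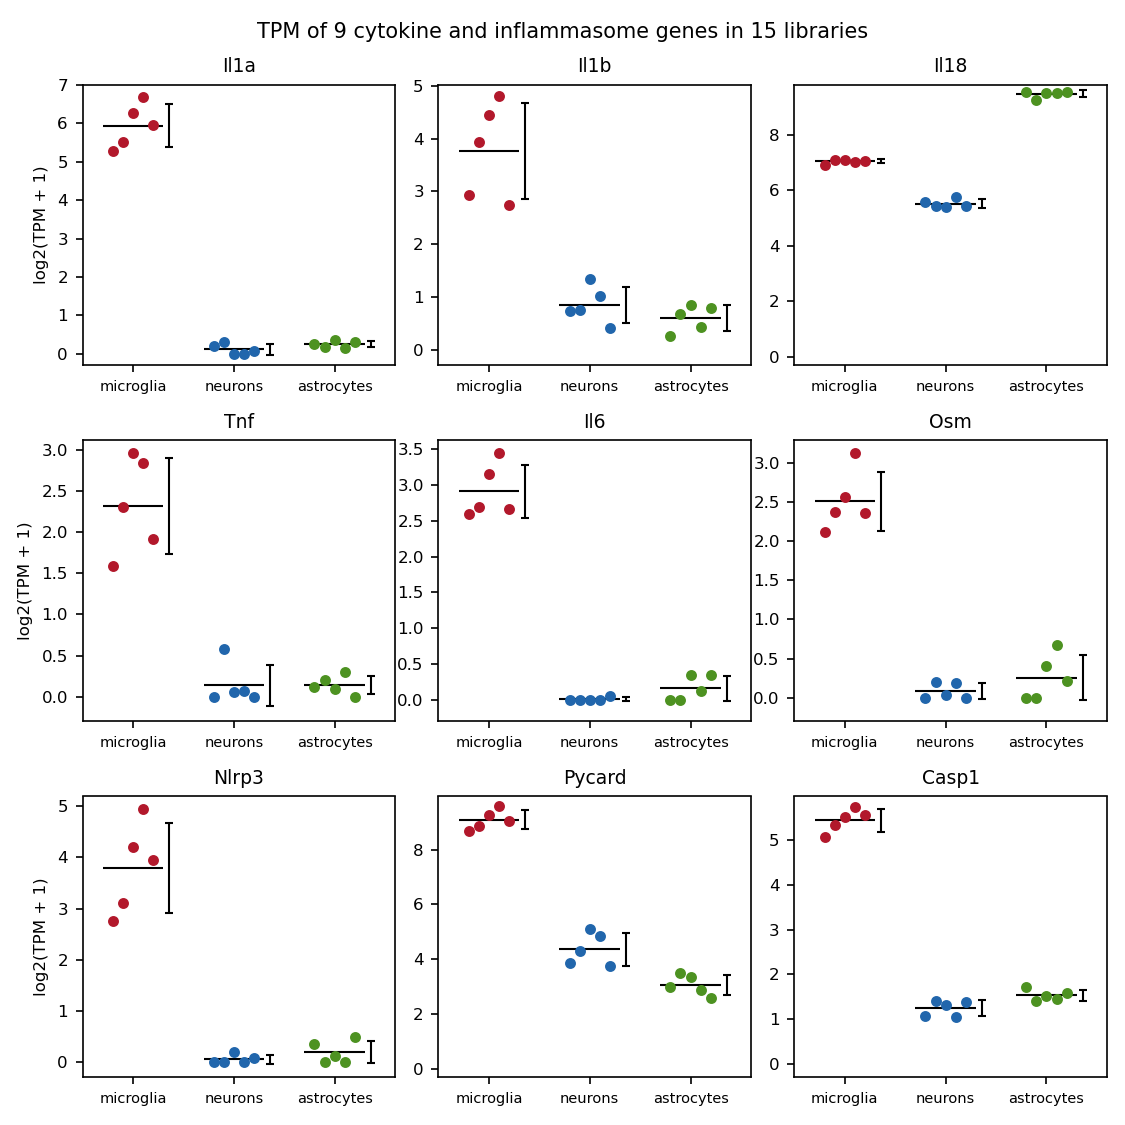
Level of each of the 9 genes on the log2(TPM + 1) scale in microglia, libraries labelled neurons and astrocytes, with 1 point per library in the order 1 to 5, the line at the group mean and the bar at the SD (n = 5). The 5 microglia points lie above all other points in every panel but that of Il18, where the 5 astrocyte points lie highest. For Il1a, Tnf, Il6, Osm and Nlrp3 the filter on low values fixed this separation in advance.

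Il1a lies on chromosome 2, at chr2:129299610-129309972 on the minus strand in mm10, and Il1b on the same strand close by, at chr2:129364570-129371139. Il1a was the most abundant of the cytokines after Il18 in microglia, at 38.1, 44.4, 75.4, 101 and 61.4 TPM in libraries 1 to 5. In neuron-labelled libraries Il1a was at 0.16, 0.24, 0, 0 and 0.05 TPM, and in astrocytes at 0.19, 0.14, 0.28, 0.11 and 0.23 TPM. Every microglia library thus lay far above every other library, while the ranges of the other groups overlapped. That microglia did not overlap the rest was fixed in advance by the filter on low values. The log2 difference of Il1a was 5.82 (SE 0.211, adjusted p = 1.06e-13) between microglia and neuron-labelled libraries and 5.69 (SE 0.211, adjusted p = 1.16e-13) between microglia and astrocytes. For neuron-labelled libraries against astrocytes it was -0.13 (SE 0.211, adjusted p = 0.627) and was not called.

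Il1b was at 6.64, 14.3, 20.9, 26.9 and 5.68 TPM in microglia libraries 1 to 5. Its level was 0.66, 0.68, 1.52, 1.01 and 0.32 TPM in neuron-labelled libraries and 0.20, 0.59, 0.79, 0.34 and 0.73 TPM in astrocytes. The microglia libraries again did not overlap the others, but they spread far more than for Il1a, with libraries 1 and 5 low and 3 and 4 high. On the log2 scale Il1b differed by 2.93 (SE 0.324, adjusted p = 3.01e-07) against neuron-labelled libraries and 3.18 (SE 0.324, adjusted p = 9.14e-08) against astrocytes. The neuron-labelled libraries minus astrocytes difference of Il1b was 0.25 (SE 0.324, adjusted p = 0.544) on the same scale. The level of Il1a exceeded that of Il1b in all 5 microglia libraries, by 5.74, 3.09, 3.62, 3.77 and 10.8-fold in libraries 1 to 5. In 5 of 5 neuron-labelled and 5 of 5 astrocyte libraries Il1a was below Il1b. However, Il1a was at most 0.28 TPM in them, and astrocyte library 1 had 0.19 TPM of Il1a against 0.20 TPM of Il1b. Values this near 0 cannot fix the order of these genes outside microglia.

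Markers of neutrophils, which also express Il1b, were looked for in the microglia libraries. All 11 neutrophil markers were above 0 TPM in every microglia library. They summed to 429 to 1019 TPM in microglia, to 13.9 to 28.6 TPM in neuron-labelled libraries and to 4.13 to 15.8 TPM in astrocytes. Camp and Ngp were listed at 0 in every astrocyte library. S100a9 and S100a8 led the microglia sum. S100a9 was at 387, 463, 514, 478 and 179.8 TPM and S100a8 at 266, 319, 325, 318 and 133 TPM in microglia libraries 1 to 5. Retnlg, Csf3r, Ngp and Camp averaged 58.98, 54.6, 17.7 and 9.72 TPM in microglia. Ltf, Cxcr2, Mmp9, Ly6g and Mmp8 averaged only 3.002, 1.55, 1.53, 1.31 and 1.01 TPM in microglia. Cxcr2 overlapped between microglia, at 0.94 to 2.09 TPM, and neuron-labelled libraries, at 0.36 to 1.87 TPM. Library 5 was the lowest for the neutrophil sum and for Il1b. Border macrophage markers, all 9 detected, summed to 1311 to 1933 TPM in microglia, 37.1 to 60.5 TPM in neuron-labelled libraries and 44.96 to 78.3 TPM in astrocytes. The 8 monocyte markers summed to 33.1 to 138 TPM in microglia, 138 to 208 TPM in neuron-labelled libraries and 11.2 to 37.3 TPM in astrocytes. The part of these cells in the levels of Il1a, Il1b and the other genes was not tested.

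Il18 departed from the other genes. Its gene lies at chr9:50554827-50581840 on the plus strand. It was at 119.5, 136, 135, 129 and 132 TPM in microglia libraries 1 to 5 and at 46.9, 42.4, 40.7, 53.3 and 42.1 TPM in neuron-labelled libraries. Astrocyte libraries 1 to 5 were at 748, 605, 723, 713 and 747 TPM. The 3 groups did not overlap, and their order was astrocytes, then microglia, then neuron-labelled libraries. The log2 difference was 1.51 (SE 0.105, adjusted p = 6.32e-10) between microglia and neuron-labelled libraries, -2.43 (SE 0.105, adjusted p = 7.52e-13) between microglia and astrocytes, and -3.94 (SE 0.105, adjusted p = 5.64e-15) between neuron-labelled libraries and astrocytes. In astrocytes, 98.7% of tested genes had a lower mean TPM than Il18. Astrocyte library 2, the lowest of its group for Il18, also had the lowest astrocyte marker sum, at 21271 TPM against 23192 to 24452 TPM in the other 4. It also had the highest oligodendrocyte marker sum, at 3810.4 TPM against 445 to 1286 TPM. The part of these sums in the Il18 levels was not tested.

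Il18 overlaps Bco2 and Tex12, which run on the opposite strand, but shares no exon base with either in the GENCODE vM21 annotation. Bco2, a carotenoid-cleaving enzyme, was higher in microglia than in astrocytes, the reverse of Il18, at 22.2 to 34.02 TPM in microglia, 0.68 to 1.05 TPM in neuron-labelled libraries and 11.7 to 15.2 TPM in astrocytes. Exons of Il1a share 222 of 1974 bases with the opposite-strand gene Gm14023, those of Il1b 25 of 1907 bases with Il1bos, and those of Pycard 485 of 3800 bases with Gm45205. Whether the counting used strand is not given in the sources used here, so reads from these pairs may not have been told apart.

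RefSeq start-site windows of build GRCm38.p6, from 250 bases before to 50 bases after the start, were available for 8 of the 9 genes, all but Osm. They are shown for 3 cytokine genes that were high in microglia, for the astrocyte-high Il18 and for the abundant adaptor gene Pycard, because these windows differ in the motifs they hold. The 4 motifs searched on both strands were TATAAA, the NF-kB motif GGNNNTTCC, the AP-1 motif TGANTCA and the PU.1 core GAGGAAGT, and no match overlapped another in these windows. Capitals mark every match. The windows are chr2:129309923-129310222, chr2:129371090-129371389 and chr17:35201958-35202257 on the minus strand, chr9:50554450-50554749 on the plus strand and chr7:127993818-127994117 on the minus strand, each written 5′ to 3′ along its gene.
Il1a: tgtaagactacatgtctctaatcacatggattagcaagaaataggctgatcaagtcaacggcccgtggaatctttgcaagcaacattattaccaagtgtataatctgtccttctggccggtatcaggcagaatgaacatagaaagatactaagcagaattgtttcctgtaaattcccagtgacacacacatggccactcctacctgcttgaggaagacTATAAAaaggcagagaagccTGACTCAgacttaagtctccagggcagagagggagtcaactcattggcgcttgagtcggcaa
Il1b: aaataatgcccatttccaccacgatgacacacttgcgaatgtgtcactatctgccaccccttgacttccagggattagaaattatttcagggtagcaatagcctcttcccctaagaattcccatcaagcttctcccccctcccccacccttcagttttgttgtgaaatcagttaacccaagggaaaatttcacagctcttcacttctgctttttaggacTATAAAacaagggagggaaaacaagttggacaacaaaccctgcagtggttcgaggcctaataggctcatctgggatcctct
Tnf: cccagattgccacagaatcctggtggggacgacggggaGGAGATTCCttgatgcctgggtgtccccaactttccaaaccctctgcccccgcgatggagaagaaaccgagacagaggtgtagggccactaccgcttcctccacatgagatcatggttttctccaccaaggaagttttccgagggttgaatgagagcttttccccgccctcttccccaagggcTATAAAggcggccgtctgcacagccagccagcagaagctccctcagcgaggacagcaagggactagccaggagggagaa
Il18: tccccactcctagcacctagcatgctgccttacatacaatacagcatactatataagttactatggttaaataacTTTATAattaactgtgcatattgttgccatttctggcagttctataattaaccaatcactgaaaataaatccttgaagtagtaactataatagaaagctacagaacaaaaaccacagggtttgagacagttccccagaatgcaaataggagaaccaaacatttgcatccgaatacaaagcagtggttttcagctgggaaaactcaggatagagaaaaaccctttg
Pycard: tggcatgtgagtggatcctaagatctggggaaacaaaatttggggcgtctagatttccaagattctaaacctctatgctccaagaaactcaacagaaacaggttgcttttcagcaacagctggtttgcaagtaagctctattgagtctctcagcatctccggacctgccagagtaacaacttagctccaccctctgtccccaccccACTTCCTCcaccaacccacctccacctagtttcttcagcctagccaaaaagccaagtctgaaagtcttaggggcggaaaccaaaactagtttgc
The TATAAA box began at position -32 from the start in Il1a, -31 in Il1b and -29 in Tnf, and 13.6% of all 32851 windows hold that motif on either strand. The Il18 window held TATAAA only on the reverse strand, at -175. Il1a also held an AP-1 match at -12, a motif found in 7.81% of windows. Tnf held an NF-kB match at -212, a motif found in 18.5% of windows. Pycard held a reverse-strand PU.1 match at -44, a motif found in 3.202% of windows. Among the windows not printed, Il6 held an NF-kB match at -43 and an AP-1 match at -249, the 2 Nlrp3 windows held NF-kB matches at -185 and -122 and at -94, and Casp1 held none of the 4. These are matches of letters, not measured binding.

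Tnf, at chr17:35199381-35202007 on the minus strand, was the least abundant of the 9 genes in microglia. It was at 2.02, 3.94, 6.79, 6.14 and 2.77 TPM in microglia libraries 1 to 5. It was at 0, 0.50, 0.04, 0.05 and 0 TPM in neuron-labelled libraries and at 0.09, 0.15, 0.07, 0.23 and 0 TPM in astrocytes. All microglia libraries lay above all others, as the filter on low values fixed in advance, the nearest being neuron-labelled library 2. The log2 difference was 2.18 (SE 0.218, adjusted p = 8.05e-08) against neuron-labelled libraries and 2.18 (SE 0.218, adjusted p = 6.87e-08) against astrocytes. For neuron-labelled libraries against astrocytes it was 0.00 (SE 0.218, adjusted p = 0.995).

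Il6, at chr5:30013114-30019981 on the plus strand, was at 5.07, 5.47, 7.94, 9.92 and 5.37 TPM in microglia libraries 1 to 5. It was listed at 0 in neuron-labelled libraries 1 to 4 and at 0.04 TPM in library 5. Astrocyte libraries 1 to 5 were at 0, 0, 0.27, 0.09 and 0.27 TPM. Il6 reached 1 TPM in 5 of 5 microglia libraries and in no other. As for Il1a, Tnf, Osm and Nlrp3, passing the filter through microglia alone fixed the lack of overlap in advance. The log2 difference of Il6 was 2.90 (SE 0.159, adjusted p = 2.64e-11) against neuron-labelled libraries and 2.75 (SE 0.159, adjusted p = 3.99e-11) against astrocytes, and -0.15 (SE 0.159, adjusted p = 0.442) between neuron-labelled libraries and astrocytes.

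Osm, which encodes oncostatin M and lies at chr11:4236420-4241026 on the plus strand, was at 3.33, 4.16, 4.88, 7.72 and 4.14 TPM in microglia libraries 1 to 5. Neuron-labelled libraries were at 0, 0.15, 0.03, 0.14 and 0 TPM and astrocytes at 0, 0, 0.32, 0.60 and 0.16 TPM. No astrocyte library reached the lowest microglia library, as the filter on low values fixed in advance. On the log2 scale Osm differed by 2.42 (SE 0.177, adjusted p = 1.34e-09) against neuron-labelled libraries and 2.25 (SE 0.177, adjusted p = 2.79e-09) against astrocytes, and -0.17 (SE 0.177, adjusted p = 0.432) between neuron-labelled libraries and astrocytes. On this scale the added 1 TPM holds down the differences of Tnf, Il6 and Osm, whose levels outside microglia were near 0.

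Among the inflammasome genes, the sensor, the adaptor and the protease were all highest in microglia, at very different levels. Nlrp3, the sensor gene at chr11:59541568-59566956 on the plus strand, was at 5.77, 7.64, 17.4, 29.7 and 14.5 TPM in microglia libraries 1 to 5. It was at 0, 0, 0.14, 0 and 0.05 TPM in neuron-labelled libraries and 0.27, 0, 0.09, 0 and 0.40 TPM in astrocytes. Library 4 was the highest and library 1 the lowest microglia library. Neither overlapped the other cell types, as the filter on low values fixed in advance. The log2 difference of Nlrp3 was 3.74 (SE 0.293, adjusted p = 3.43e-09) against neuron-labelled libraries and 3.60 (SE 0.293, adjusted p = 4.42e-09) against astrocytes, and -0.14 (SE 0.293, adjusted p = 0.711) between neuron-labelled libraries and astrocytes.

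Pycard, the adaptor gene at chr7:127989708-127993867 on the minus strand, was the most abundant of the 9 genes in microglia. It was at 409, 465, 616, 766 and 532 TPM in microglia libraries 1 to 5. Neuron-labelled libraries were at 13.4, 18.6, 33.2, 28.2 and 12.6 TPM and astrocytes at 7.01, 10.2, 9.2, 6.43 and 4.99 TPM. The 3 groups did not overlap, and the order was microglia, then neuron-labelled libraries, then astrocytes. Pycard had a log2 difference of 4.72 (SE 0.253, adjusted p = 2.02e-11) between microglia and neuron-labelled libraries and 6.03 (SE 0.253, adjusted p = 5.39e-13) between microglia and astrocytes. Between neuron-labelled libraries and astrocytes the log2 difference was 1.31 (SE 0.253, adjusted p = 0.000288), with Pycard higher in the neuron-labelled ones. Without the libraries numbered 3 and 4 in all groups, that last difference was 0.94 (adjusted p = 0.00463) and below the size needed for a call. Neuron-labelled libraries 3 and 4, the highest for Pycard, also had the highest sums of 9 mural cell markers. These sums were 1218, 1087, 2764, 2453 and 1869.9 TPM in libraries 1 to 5, against 252 to 407 TPM in astrocytes. Acta2 and Tagln led those sums, at means of 1303 and 286 TPM against 99.6 and 23.6 TPM in astrocytes. Rgs5, Kcnj8, Cspg4, Myh11 and Notch3 also had higher means in neuron-labelled libraries than in astrocytes. Pdgfrb and Abcc9 had lower means in neuron-labelled libraries, at 12.6 and 4.2 TPM against 18.8 and 4.88 TPM. Kcnj8 was highest in neuron-labelled libraries 2 and 4, and Abcc9 in 2 and 5. The immediate early and cell isolation response genes were also high in neuron-labelled libraries 3 and 4. They summed to 783, 782, 1889, 2052 and 624 TPM in neuron-labelled libraries 1 to 5. The part of these genes in the Pycard difference was not tested.

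Casp1, the protease gene at chr9:5298517-5307265 on the plus strand, was at 32.5, 39.05, 44.6, 52.2 and 46.3 TPM in microglia libraries 1 to 5. It was at 1.11, 1.65, 1.5, 1.06 and 1.61 TPM in neuron-labelled libraries and 2.29, 1.65, 1.86, 1.73 and 2.02 TPM in astrocytes. Microglia lay well above both other groups, which overlapped. Casp1 had a log2 difference of 4.19 (SE 0.155, adjusted p = 1.26e-13) against neuron-labelled libraries and 3.90 (SE 0.155, adjusted p = 2.44e-13) against astrocytes, and -0.29 (SE 0.155, adjusted p = 0.122) between neuron-labelled libraries and astrocytes. In every microglia library Pycard stood above Casp1 and Nlrp3, by 11.5- to 14.7-fold over Casp1 and by 25.8- to 70.9-fold over Nlrp3.

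**Figure D2:**
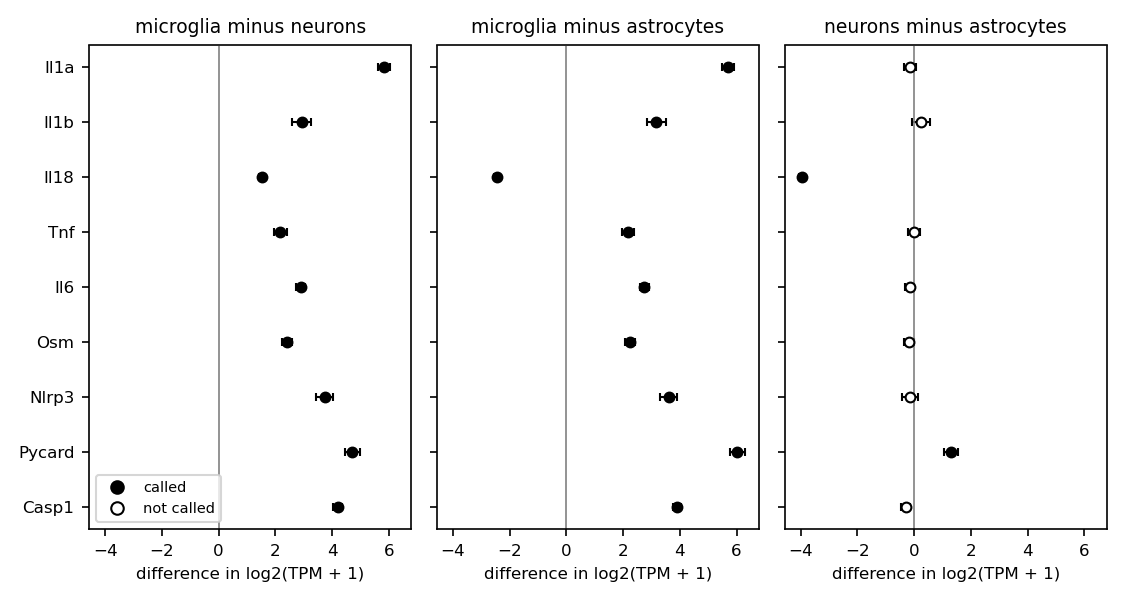
Difference in log2(TPM + 1) of each gene between microglia and libraries labelled neurons, between microglia and astrocytes, and between libraries labelled neurons and astrocytes, with the SE of the limma fit as bars and filled points for called differences. Il18 is the only point left of 0 in the middle panel, at -2.43, and Il18 and Pycard are the filled points of the right panel, at -3.94 and 1.31.

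Within microglia the levels fell into steps. Pycard averaged 558 ± 139.7 TPM, Il18 130.2 ± 6.501 TPM, Il1a 64.1 ± 25.4 TPM and Casp1 42.9 ± 7.47 TPM (SD, n = 5 each). Pycard and Il18 each stood clear of the next gene, while the ranges of Il1a and Casp1 overlapped. Nlrp3 at 15.01 ± 9.52 TPM, Il1b at 14.9 ± 9.11 TPM, Il6 at 6.75 ± 2.11 TPM, Osm at 4.85 ± 1.698 TPM and Tnf at 4.33 ± 2.08 TPM followed, each overlapping its neighbour in that order. In neuron-labelled libraries the order was Il18, Pycard and Casp1, at 45.1, 21.2 and 1.39 TPM, with Il1b next at 0.838 TPM, overlapping Casp1. In astrocytes it was Il18, Pycard, Casp1 and Il1b, at 707, 7.57, 1.91 and 0.53 TPM, none of which overlapped another. The other 5 genes stayed at or below 0.60 TPM in every library of both groups.

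The low levels outside microglia were not the same share of the microglia level for every gene. The microglia marker sum in neuron-labelled libraries was 0.111% of that in microglia. Larger shares of the microglia mean were seen there for Casp1, at 3.23%, Pycard, at 3.799%, and Il1b, at 5.63%. In astrocytes the marker sum was at 0.218% of its microglia mean and Il1a at 0.296%. The others were at 1.01% for Nlrp3, 1.357% for Pycard, 1.87% for Il6, 2.49% for Tnf, 3.56% for Il1b, 4.45% for Casp1 and 4.46% for Osm. Several shares of the scarcer genes moved when 1 library was left out. In neuron-labelled libraries Tnf was at 2.72% of its microglia mean but at 0.519% without library 2. Osm was at 1.32% there, but at 0.877% without library 2 and 0.929% without library 4. There Il1a was at 0.14%, and at 0.113% without library 1 and 0.0819% without library 2. Nlrp3 was at 0.253% there, and at 0.0833% without library 3. Il6 was at 0.118% and was listed at 0 in all but neuron-labelled library 5. In astrocytes the share of Osm was 2.48% without library 4 and that of Nlrp3 0.60% without library 5. Il18 stood at 34.6% of its microglia mean in neuron-labelled libraries and at 543% in astrocytes.

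The 9 genes also differed in how steady they were across the 5 microglia libraries. Il18 was the steadiest in TPM, with its highest library 1.14-fold above its lowest. The same ratio was 1.604 for Casp1, 1.87 for Pycard, 1.96 for Il6, 2.32 for Osm and 2.65 for Il1a. It reached 3.36 for Tnf, 4.73 for Il1b and 5.15 for Nlrp3. Library 1 was the lowest for all 8 genes other than Il1b, and library 4 the highest for 7 of the 9 genes. The microglia marker sum itself was 68052, 63749, 84915, 99669.9 and 101733 TPM in libraries 1 to 5, lowest in the 2 libraries with most oligodendrocyte RNA.

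Values were also expressed per 100000 TPM of microglia markers. The ratio of the highest to the lowest library then became 1.65 for Il18, 1.35 for Casp1, 1.47 for Pycard, 1.81 for Il1a, 1.89 for Il6 and 1.903 for Osm. It remained large for Tnf, at 2.94, for Nlrp3, at 3.52, and for Il1b, at 4.82. On that scale Il1b was at 9.76, 22.5, 24.6, 26.9 and 5.58 and Tnf at 2.97, 6.18, 7.996, 6.16 and 2.72 in libraries 1 to 5. Both were lowest in libraries 1 and 5. The immediate early and cell isolation response genes, which are known to rise during tissue dissociation, summed to 2232, 2139, 5943, 4156 and 1736 TPM in microglia libraries 1 to 5, highest in libraries 3 and 4. Their part in the spread of the cytokine genes was not tested.

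**Figure D3:**
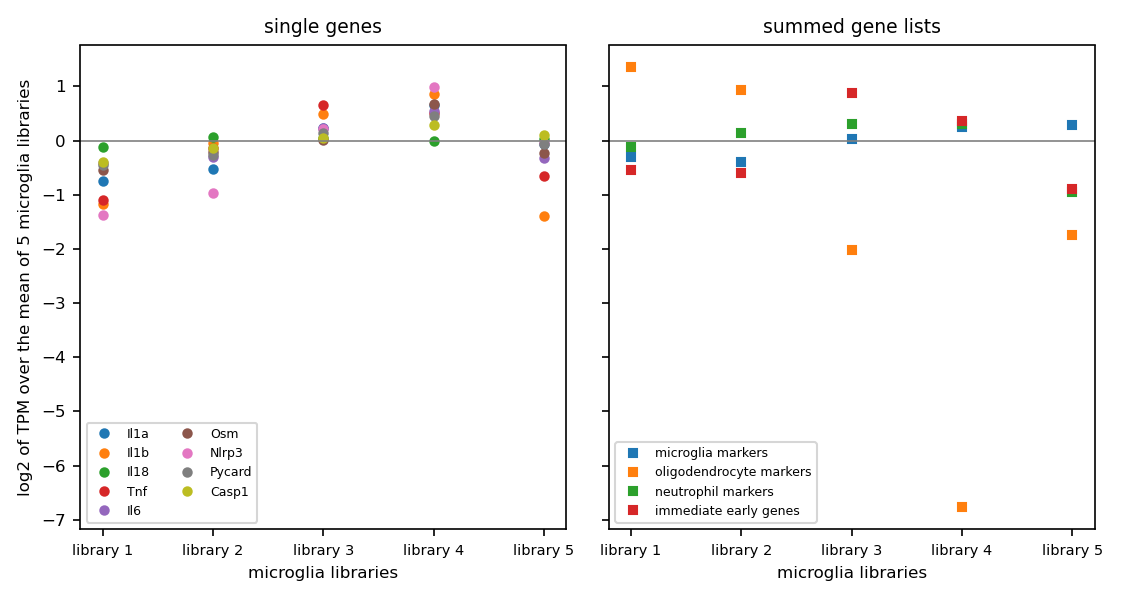
Level in each microglia library as log2 of TPM over the mean of the 5 libraries, for the 9 genes (left) and for the summed TPM of 4 gene lists (right). Library 4 lies above the mean for 8 of the 9 genes, Il18 stays near 0 in every library, Il1b drops in libraries 1 and 5, and the oligodendrocyte marker sum is highest in libraries 1 and 2.

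The receptor genes for these cytokines differed from one another in the group where they were highest. Means from here on are ± SD over the 5 libraries of a group. Il1r1, the signalling receptor for both forms of interleukin-1, was at 0.33 ± 0.178 TPM in microglia, 4.54 ± 1.58 TPM in neuron-labelled libraries and 1.56 ± 0.49 TPM in astrocytes (SD, n = 5 each). Its range was 0.10 to 0.59 TPM in microglia, 2.89 to 6.17 TPM in neuron-labelled libraries and 0.94 to 2.26 TPM in astrocytes, with no overlap between groups. It was lower in microglia than in neuron-labelled libraries, with a log2 difference of -2.02 (SE 0.196, adjusted p = 5.76e-08). The difference between microglia and astrocytes, -0.93 (SE 0.196, adjusted p = 0.00037), fell short of the size for a call, but reached it, at -1.001 and -1.03, without microglia library 3 or without astrocyte library 2, and at -2.01 with a constant of 0.1. Il1r1 was higher in neuron-labelled libraries than in astrocytes, by 1.08 (SE 0.196, adjusted p = 0.000155), a call that was lost, at 0.98 to 0.99, without neuron-labelled library 3 or 5 or without astrocyte library 2. In the brain Il1r1 is best known from endothelial cells, whose markers led the neuron-labelled libraries at the sums given above. Their part in the Il1r1 level was not tested.

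The co-receptor Il1rap averaged 4.48 ± 3.01 TPM in microglia, 4.08 ± 1.01 TPM in neuron-labelled libraries and 3.24 ± 1.28 TPM in astrocytes and was called in no comparison, with log2 differences of -0.05 for microglia minus neuron-labelled libraries, 0.24 for microglia minus astrocytes and 0.29 for neuron-labelled libraries minus astrocytes. Il1rap was at 6.86, 8.45, 3.25, 1.56 and 2.28 TPM in microglia libraries 1 to 5, high in libraries 1 and 2, where the oligodendrocyte markers given above were highest too. Without the libraries numbered 1 and 2 its differences were -0.65 for microglia minus neuron-labelled libraries and -0.60 for microglia minus astrocytes, below the size for a call (adjusted p = 0.0375 and 0.0505 in limma). Without those numbered 3 and 4 they were 0.40 and 0.91, also below it. The part of those markers in the Il1rap level was not tested. Sigirr, an inhibitory receptor of the family, averaged 1.93 ± 0.828 TPM in microglia, 38.5 ± 8.45 TPM in neuron-labelled libraries and 5.704 ± 0.457 TPM in astrocytes. The log2 difference of Sigirr was -3.77 (SE 0.191, adjusted p = 9.24e-12) between microglia and neuron-labelled libraries and 2.54 (SE 0.191, adjusted p = 4.61e-09) between neuron-labelled libraries and astrocytes. Between microglia and astrocytes it was -1.23 (SE 0.191, adjusted p = 1.55e-05), and -0.73 and -0.63, no longer called, under median-of-ratios and quantile scaling. Il18bp, which encodes a secreted inhibitor of interleukin-18, averaged 4.13 ± 0.91 TPM in microglia, 8.55 ± 3.35 TPM in neuron-labelled libraries and 3.24 ± 1.31 TPM in astrocytes. It was called higher in neuron-labelled libraries than in astrocytes, by 1.15 (SE 0.258, adjusted p = 0.00105), but lost that call, at 0.855 to 0.997, without neuron-labelled library 3, without astrocyte library 1 or without either numbered pair.

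The remaining interleukin-1 and interleukin-18 receptors and the receptor antagonist were near the limit of the table. The decoy receptor Il1r2 was at 0.55 to 1.49 TPM in microglia, 0 to 0.61 TPM in neuron-labelled libraries and 0 to 0.89 TPM in astrocytes. The antagonist Il1rn was at 0.15 to 1.7 TPM in microglia, 0 to 0.15 TPM in neuron-labelled libraries and 0 to 1.11 TPM in astrocytes. The interleukin-18 receptor subunit Il18r1 was at 0.04 to 0.12 TPM in microglia, 0 to 0.13 TPM in neuron-labelled libraries and 0 to 1.0 TPM in astrocytes, and its partner Il18rap at 0.14 to 0.39, 0.02 to 0.15 and 0 to 0.21 TPM in the same order of groups. None of these 4 passed the filter on low values, so none was tested.

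Among all 13351 tested genes, the baseline for every list below, 9.74% were called higher and 29.5% lower in microglia than in neuron-labelled libraries. Those shares were 10.2% and 32.3% against astrocytes, and 12.9% and 12.7% for neuron-labelled libraries against astrocytes. Median-of-ratios and quantile scaling called 2107 and 1937 higher and 2655 and 2499 lower against neuron-labelled libraries. Against astrocytes they called 2285 and 2028 higher and 2619 and 2524 lower. Of 16 other interleukin-1 family genes listed, 12 were in the table under those symbols and 6 were tested. Between microglia and neuron-labelled libraries 1 rose and 2 fell, with a median log2 difference of -0.45 against -0.48 over all tested genes. Between microglia and astrocytes 1 rose and 2 fell, with a median of -0.35 against -0.57 over all tested genes. Between neuron-labelled libraries and astrocytes 3 rose and 1 fell, with a median of 0.69 against -0.03. Under median-of-ratios and quantile scaling the median against neuron-labelled libraries was 0.06 and 0.10, beside 0.02 and -0.04 over all tested genes. Against astrocytes it was 0.06 and 0.23, beside -0.02 and -0.06 over all tested genes, and 1 gene rather than 2 fell. Without the libraries numbered 1 and 2 those medians were -0.81 and -0.79, and without those numbered 3 and 4 they were -0.12 and -0.31. Il1rl2, the interleukin-36 receptor, averaged 5.25 ± 2.42 TPM in microglia, 0.23 ± 0.0474 TPM in neuron-labelled libraries and 0.608 ± 0.203 TPM in astrocytes. It was the one that rose in microglia, by 2.26 (SE 0.205, adjusted p = 2.41e-08) against neuron-labelled libraries and 1.88 (SE 0.205, adjusted p = 2.19e-07) against astrocytes. Il1rl2 passed the filter through the microglia libraries alone and so had to differ. Without it the list medians were -0.84, -0.93 and 1.08 in the 3 comparisons. Il33, a nuclear cytokine of the family that astrocytes and oligodendrocytes are known to make, averaged 3.87 ± 2.59 TPM in microglia, 2.37 ± 0.304 TPM in neuron-labelled libraries and 65.6 ± 13.1 TPM in astrocytes. It fell in microglia relative to astrocytes, with a log2 difference of -3.96 (SE 0.323, adjusted p = 4.50e-09), and in neuron-labelled libraries relative to astrocytes, with one of -4.28 (SE 0.323, adjusted p = 4.72e-09). Il33 and Il18 were thus the tested ligands of the family that were highest in astrocytes.

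Both TNF receptor genes were highest in microglia. Tnfrsf1b, the receptor that membrane-bound TNF engages most fully, averaged 33.6 ± 9.35 TPM in microglia, 2.91 ± 0.75 TPM in neuron-labelled libraries and 0.686 ± 0.157 TPM in astrocytes. Its log2 difference was 3.13 (SE 0.195, adjusted p = 1.58e-10) against neuron-labelled libraries, 4.32 (SE 0.195, adjusted p = 1.42e-12) against astrocytes and 1.20 (SE 0.195, adjusted p = 5.20e-05) between neuron-labelled libraries and astrocytes. Tnfrsf1a, the death-domain receptor, was more evenly spread, at 58.9 ± 17.02 TPM in microglia, 22.5 ± 5.89 TPM in neuron-labelled libraries and 27.2 ± 3.86 TPM in astrocytes. The log2 difference of Tnfrsf1a was 1.33 (SE 0.203, adjusted p = 1.37e-05) against neuron-labelled libraries. Against astrocytes it was 1.05 (SE 0.203, adjusted p = 0.000172), a call that was lost, at 0.93 to 0.98, without microglia library 4 or 5, without astrocyte library 2 or without the libraries numbered 3 and 4.

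Of 16 other TNF pathway genes, 15 were tested. Between microglia and neuron-labelled libraries 6 rose (Tnfrsf1a, Tnfrsf1b, Adam17, Tnfaip3, Casp8 and Cflar) and 1 fell (Traf1), with a median log2 difference of 0.67. Between microglia and astrocytes 8 rose, the same 6 with Ltb and Birc3, and Traf1 fell, with a median of 1.05. In neuron-labelled libraries relative to astrocytes 3 rose (Tnfrsf1b, Birc3 and Casp8) and none fell, with a median of 0.04. The medians over all tested genes were -0.48, -0.57 and -0.03 in the same order of comparisons. Under median-of-ratios and quantile scaling 8 rose and none fell against neuron-labelled libraries, with medians of 1.13 and 1.17. Against astrocytes 9 rose and 1 fell, with medians of 1.71 and 1.51. All tested genes then had medians of 0.02 and -0.04 against neuron-labelled libraries and -0.02 and -0.06 against astrocytes. Without the libraries numbered 3 and 4, 4 rose against neuron-labelled libraries and 7 against astrocytes. The median between neuron-labelled libraries and astrocytes was 0.09 to 0.13 under those scalings and without either numbered pair. Casp8, an initiator caspase that can also cleave interleukin-1 beta, averaged 74.4 ± 20.05 TPM in microglia, 20.2 ± 3.84 TPM in neuron-labelled libraries and 4.82 ± 1.15 TPM in astrocytes. Cflar, a catalytically inactive relative that restrains caspase-8, averaged 66.7 ± 18.2 TPM in microglia, 25.8 ± 7.46 TPM in neuron-labelled libraries and 26.8 ± 4.58 TPM in astrocytes. Traf1, a signalling adaptor, averaged 0.75 ± 0.121 TPM in microglia, 3.35 ± 1.09 TPM in neuron-labelled libraries and 5.79 ± 2.47 TPM in astrocytes. Its difference from neuron-labelled libraries, -1.27 (SE 0.231, adjusted p = 9.60e-05), shrank to -0.93 and -0.64, not called, under median-of-ratios and quantile scaling.

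For interleukin-6 and oncostatin M the receptor subunits parted. Il6ra, the interleukin-6 binding subunit, averaged 11.8 ± 3.801 TPM in microglia, 1.06 ± 0.194 TPM in neuron-labelled libraries and 0.436 ± 0.253 TPM in astrocytes. It was higher in microglia, by 2.59 (SE 0.193, adjusted p = 1.71e-09) against neuron-labelled libraries and 3.12 (SE 0.193, adjusted p = 1.01e-10) against astrocytes on the log2 scale. Osmr, the oncostatin M receptor subunit, ran the other way, at 0.214 ± 0.0984 TPM in microglia, 5.198 ± 1.09 TPM in neuron-labelled libraries and 3.27 ± 1.63 TPM in astrocytes. It was lower in microglia, with log2 differences of -2.33 (SE 0.234, adjusted p = 8.43e-08) against neuron-labelled libraries and -1.72 (SE 0.234, adjusted p = 3.38e-06) against astrocytes. Il6st, which encodes the shared subunit gp130, averaged 15.3 ± 5.95 TPM in microglia, 12.6 ± 4.23 TPM in neuron-labelled libraries and 14.5 ± 6.23 TPM in astrocytes and was called in no comparison, with log2 differences of 0.24 for microglia minus neuron-labelled libraries, 0.10 for microglia minus astrocytes and -0.14 for neuron-labelled libraries minus astrocytes. The ligand Osm and its receptor subunit Osmr therefore had their high and low groups exchanged, whereas Il6 and Il6ra were both highest in microglia.

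**Figure D4:**
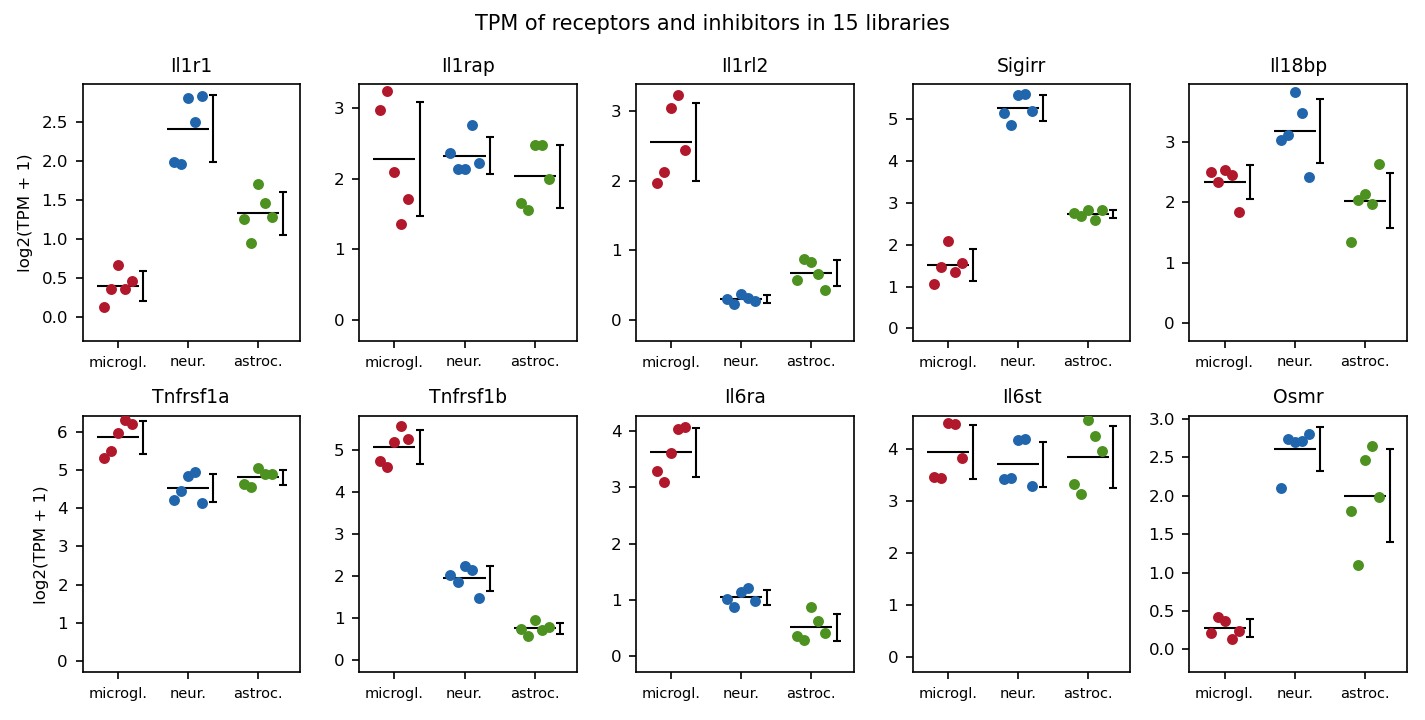
Level of 10 receptor and inhibitor genes on the log2(TPM + 1) scale in microglia, libraries labelled neurons and astrocytes, with 1 point per library, the line at the group mean and the bar at the SD (n = 5). Tnfrsf1b, Tnfrsf1a, Il6ra and Il1rl2 are highest in microglia, Il1r1, Sigirr and Osmr are lowest there, and Il1rap and Il6st overlap across all 3 groups.

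Of 17 genes listed for interleukin-6 and oncostatin M family signalling, 14 were tested. Between microglia and neuron-labelled libraries 4 rose (Clcf1, Il27, Il6ra and Socs3) and 3 fell, Ctf1 and Osmr among them, with a median log2 difference of 0.14. Between microglia and astrocytes the same 4 rose and 5 fell, among them Ctf1, Osmr, Cntfr and Il11ra1, with a median of 0.00. In neuron-labelled libraries relative to astrocytes none rose and 3 fell (Ctf1, Cntfr and Il11ra1), with a median of -0.11. The medians over all tested genes were -0.48, -0.57 and -0.03 in the same order of comparisons. Median-of-ratios and quantile scaling gave list medians of 0.73 and 0.55 against neuron-labelled libraries, beside 0.02 and -0.04 over all tested genes. Against astrocytes they gave 0.66 and 0.49, beside -0.02 and -0.06. Quantile scaling left 1 gene that fell against neuron-labelled libraries, and either scaling gave 6 that rose and 4 that fell against astrocytes. Without the libraries numbered 1 and 2 the median against astrocytes was -0.10, and between neuron-labelled libraries and astrocytes 1 rose and 1 fell. Il27 passed the filter through the microglia libraries alone and so had to differ, and without it the 3 medians were 0.09, -0.09 and -0.14. Clcf1, a ligand of the ciliary neurotrophic factor receptor, averaged 14.7 ± 3.29 TPM in microglia, 0.922 ± 0.335 TPM in neuron-labelled libraries and 0.336 ± 0.223 TPM in astrocytes. Cntfr, the binding subunit of that receptor, was the opposite, at 3.14 ± 1.51 TPM in microglia, 4.396 ± 1.01 TPM in neuron-labelled libraries and 73.9 ± 30.6 TPM in astrocytes. Socs3, a feedback inhibitor of gp130 signalling, averaged 11.9 ± 6.34 TPM in microglia, 2.62 ± 1.62 TPM in neuron-labelled libraries and 1.01 ± 0.258 TPM in astrocytes.

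Of 19 other inflammasome sensors, regulators and effectors, 11 were tested. Between microglia and neuron-labelled libraries 8 rose and none fell, with a median log2 difference of 1.68. Between microglia and astrocytes the same 8 rose and Gsdme fell, with a median of 2.37. Those 8 were Aim2, Naip2, Naip5, Casp4, Gsdmd, Txnip, P2rx7 and Ninj1. Between neuron-labelled libraries and astrocytes Aim2, Casp4 and Gsdmd rose and none fell, with a median of 0.21. The medians over all tested genes were -0.48, -0.57 and -0.03 in the same order of comparisons. Naip2 and Naip5 passed the filter through the microglia libraries alone and so had to differ. Without them 6 of 9 rose in both microglia comparisons, and the 3 medians were 1.51, 2.53 and 0.68. Under median-of-ratios and quantile scaling 9 of 11 rose and none fell in both microglia comparisons. Other sensor genes were scarce in microglia: Nlrp1a was at 0.40 to 1.6, Nlrp1b at 0.63 to 1.63, Nlrc4 at 0.21 to 0.50 and Mefv at 0.04 to 0.15 TPM, below the filter. Nlrp6 was listed at 0 in every microglia library.

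Gsdmd, the pore-forming protein that caspase-1 cleaves, averaged 67.3 ± 20.6 TPM in microglia, 13.9 ± 4.81 TPM in neuron-labelled libraries and 3.18 ± 1.82 TPM in astrocytes. Its log2 difference was 2.19 (SE 0.294, adjusted p = 3.17e-06) against neuron-labelled libraries, 4.08 (SE 0.294, adjusted p = 8.32e-10) against astrocytes and 1.89 (SE 0.294, adjusted p = 3.19e-05) between neuron-labelled libraries and astrocytes. The 3 groups did not overlap for Gsdmd and held the same order as for Pycard. Casp4, the caspase that senses cytosolic lipopolysaccharide, averaged 12.5 ± 4.203 TPM in microglia, 3.97 ± 2.11 TPM in neuron-labelled libraries and 0.924 ± 0.705 TPM in astrocytes. Its difference between neuron-labelled libraries and astrocytes, 1.32 (SE 0.32, adjusted p = 0.00204), was 0.94 and not called without the libraries numbered 1 and 2.

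Aim2, a sensor of cytosolic DNA, averaged 25.5 ± 9.65 TPM in microglia, 2.92 ± 1.07 TPM in neuron-labelled libraries and 0.81 ± 0.296 TPM in astrocytes, with log2 differences of 2.73 (SE 0.253, adjusted p = 3.01e-08) against neuron-labelled libraries and 3.81 (SE 0.253, adjusted p = 2.67e-10) against astrocytes. In TPM, Aim2 was thus above Nlrp3 in microglia on average, with overlapping ranges of 15.4 to 37.99 and 5.77 to 29.7 TPM. Its difference between neuron-labelled libraries and astrocytes, 1.08 (SE 0.253, adjusted p = 0.00153), was 0.95 and not called without the libraries numbered 3 and 4, and 0.97 without neuron-labelled library 3. P2rx7, the ATP-gated channel whose opening is a known trigger of NLRP3, averaged 52.02 ± 9.85 TPM in microglia, 3.61 ± 0.787 TPM in neuron-labelled libraries and 7.04 ± 1.96 TPM in astrocytes. Naip5, a sensor of bacterial flagellin, was at 2.94 to 6.32 TPM in microglia, 0.08 to 0.41 TPM in neuron-labelled libraries and 0.02 to 0.19 TPM in astrocytes, though the Naip genes are near-identical copies whose reads may be split. Gsdme, another gasdermin, averaged 2.18 ± 0.446 TPM in microglia, 3.1 ± 0.972 TPM in neuron-labelled libraries and 6.28 ± 0.867 TPM in astrocytes. Its fall against astrocytes, -1.20 (SE 0.177, adjusted p = 9.47e-06), became -0.67 and -0.60, not called, under median-of-ratios and quantile scaling.

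All 21 genes listed for the MyD88 and NF-kB pathway, through which interleukin-1 receptors signal, were tested. Between microglia and neuron-labelled libraries 6 rose and 1 fell, with a median log2 difference of 0.25. Between microglia and astrocytes 6 rose and 1 fell, with a median of 0.30. Myd88, Irak4, Nfkb1, Rel and Nfkbie rose in both. Neuron-labelled libraries against astrocytes gave 2 that rose and 1 that fell, with a median of -0.01. The medians over all tested genes were -0.48, -0.57 and -0.03 in the same order of comparisons. Rel passed the filter through the microglia libraries alone and so had to differ. Without it 5 of 20 rose in both microglia comparisons, and the 3 medians were 0.21, 0.21 and -0.05. Under median-of-ratios and quantile scaling 8 rose and none fell in both microglia comparisons. The medians were then 0.70 and 0.63 against neuron-labelled libraries, 0.81 and 0.79 against astrocytes, and 0.06 with both scalings between neuron-labelled libraries and astrocytes. That last median was -0.24 without the libraries numbered 1 and 2 and 0.04 without those numbered 3 and 4. Under the 2 scalings all tested genes had medians of 0.02 and -0.04 against neuron-labelled libraries and -0.02 and -0.06 against astrocytes. Nfkb1, the p105 and p50 subunit, averaged 41.6 ± 12.6 TPM in microglia, 8.67 ± 2.45 TPM in neuron-labelled libraries and 6.02 ± 2.25 TPM in astrocytes. Myd88, the adaptor itself, averaged 47.7 ± 9.77 TPM in microglia, 16.0 ± 4.003 TPM in neuron-labelled libraries and 12.9 ± 2.96 TPM in astrocytes, and the kinase Irak4 8.54 ± 2.05 TPM in microglia, 3.07 ± 0.691 TPM in neuron-labelled libraries and 2.46 ± 0.621 TPM in astrocytes. Nfkbie, an inhibitor of NF-kB, averaged 7.65 ± 1.38 TPM in microglia, 0.776 ± 0.33 TPM in neuron-labelled libraries and 1.84 ± 0.182 TPM in astrocytes.

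Nfkbia, an inhibitor that NF-kB itself induces, went the other way, at 527 ± 266 TPM in microglia, 1249 ± 274 TPM in neuron-labelled libraries and 438 ± 53.9 TPM in astrocytes. It was lower in microglia than in neuron-labelled libraries, with a log2 difference of -1.37 (SE 0.265, adjusted p = 0.000184), which became -0.75 and -0.94, not called, under median-of-ratios and quantile scaling. Against astrocytes its log2 difference was 0.12 (SE 0.265, adjusted p = 0.685). Tollip, an inhibitory adaptor, averaged 10.7 ± 0.736 TPM in microglia, 21.2 ± 3.68 TPM in neuron-labelled libraries and 30.7 ± 7.897 TPM in astrocytes, and its fall against astrocytes, -1.41 (SE 0.17, adjusted p = 8.05e-07), became -0.76 and -0.89, not called, under the same scalings.

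Of 20 immediate early and cell isolation response genes, 19 were tested. Between microglia and neuron-labelled libraries 8 rose and 4 fell, with a median log2 difference of 0.84 against -0.48 over all tested genes. Between microglia and astrocytes 11 rose and 2 fell, with a median of 1.75 against -0.57. Between neuron-labelled libraries and astrocytes 11 rose and none fell, with a median of 1.16 against -0.03. That last count was 5, with a median of 0.62, without the libraries numbered 3 and 4, and the median between microglia and astrocytes was then 1.11. Under median-of-ratios and quantile scaling 11 and 10 rose and 3 fell between microglia and neuron-labelled libraries, with medians of 1.34 and 1.42. All tested genes then had medians of 0.02 and -0.04 in that comparison. The chemokine Ccl3 averaged 268 ± 109 TPM in microglia, 1.71 ± 0.506 TPM in neuron-labelled libraries and 2.004 ± 0.972 TPM in astrocytes. Its neighbour Ccl4 was at 144 to 339 TPM in microglia, 1.04 to 3.64 TPM in neuron-labelled libraries and 0 to 0.62 TPM in astrocytes. Zfp36, whose protein is known to destabilise Tnf mRNA, averaged 467 ± 261 TPM in microglia, 47.1 ± 30.8 TPM in neuron-labelled libraries and 16.1 ± 2.32 TPM in astrocytes. Junb, an AP-1 subunit, averaged 564 ± 293 TPM in microglia, 73.9 ± 59.4 TPM in neuron-labelled libraries and 20.03 ± 1.77 TPM in astrocytes. Against that direction, Klf2 averaged 12.7 ± 6.95 TPM in microglia, 163 ± 48.8 TPM in neuron-labelled libraries and 30.95 ± 5.02 TPM in astrocytes and Nr4a1 3.05 ± 1.62 TPM in microglia, 13.6 ± 6.45 TPM in neuron-labelled libraries and 10.96 ± 1.55 TPM in astrocytes. The fall of Klf2 against astrocytes, -1.34 (SE 0.274, adjusted p = 0.000285), became -0.69 and -0.81, not called, under median-of-ratios and quantile scaling. The isolation response genes summed to 1736 to 5943 TPM in microglia, 624 to 2052 TPM in neuron-labelled libraries and 419.98 to 509 TPM in astrocytes. Their part in the cytokine levels was not tested.

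The genes whose profiles over the 15 libraries lay nearest to each of the 9 were found by the root mean square difference of centred log2(TPM + 1) values, given here in brackets. Nearest to Il1a were Itgam (0.158), Il10ra (0.182) and Csf3r (0.197), and nearest to Casp1 were Tlr13 (0.158), Btk (0.179) and Pik3ap1 (0.216). Itgam, the integrin subunit CD11b, averaged 59.5 ± 21.1 TPM in microglia, 0.074 ± 0.0439 TPM in neuron-labelled libraries and 0.338 ± 0.135 TPM in astrocytes. Nearest to Il18 were Tom1l1 (0.233), Mid1ip1 (0.275) and Naaa (0.327). Tom1l1, a trafficking adaptor, averaged 16.6 ± 2.91 TPM in microglia, 5.2 ± 1.16 TPM in neuron-labelled libraries and 79.9 ± 8.46 TPM in astrocytes, with the same order of groups as Il18. For Pycard they were Upk1b (0.32), Hcst (0.345) and Cysltr1 (0.377), for Nlrp3 Rubcnl (0.27), Themis2 (0.286) and Cdh23 (0.305), and for Il1b Il4i1 (0.351), Rnase12 (0.362) and Siglecf (0.371). For the scarcer cytokines they were Spns3 (0.217), Ctf2 (0.232) and Olfr110 (0.236) for Tnf, Siglecf (0.148), Ticam2 (0.152) and 6030468B19Rik (0.196) for Il6 and Lrrc25 (0.171), Spns3 (0.172) and Zfp90 (0.176) for Osm. Smaller values lie nearer, and Il1b had the most distant first neighbour.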

How the data were processed

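PolyA RNA from the 15 libraries was sequenced as paired ends, per the labels' protocols. The submitters' processing notes name Trim Galore 0.6.4, STAR 2.7.1a, RSEM 1.2.28, DESeq2 1.36.0 and build mm10, without their roles. Values were used as deposited by the authors, as TPM in 1 column per library. TPM keeps no read depth, so no counting interval is given, and the precision rests on the spread of 5 libraries per cell type. Groups were taken from the cell type labels.

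A constant of 1 was added before log2. Genes that reached 1 TPM in 5 or more of the 15 libraries were kept, and the 13351 that passed were fitted together in limma 3.58.1 (R 4.3.3) with a variance trend and cell type means only. P-values were adjusted by Benjamini-Hochberg over all 13351, and a call needed an adjusted p below 0.05 and a log2 difference of at least 1. The same steps were tested on simulated data. Tables were handled with pandas 2.3.3 in Python 3.11.15.

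The 9 genes and the pathway and marker lists were chosen with earlier results of these data known, so counts over them are descriptions. Genes named within a list were those with the largest difference between microglia and the mean of the other groups (up to 4), up to 2 called against the list's majority, the receptors and inhibitors of the 9 genes, Gsdmd and Casp4, and for each of the 9 the 3 genes of nearest profile. Gene positions are from GENCODE vM21, which matched 20499 of 20610 gene identifiers. The 4 interleukin-36 genes of the list were not matched by symbol and were not analysed here.

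Alternatives were no filter, a filter of 5 TPM, a constant of 0.1, median-of-ratios and quantile scaling, a fit of the compared cell types alone, a fit lacking the variance trend, a block for the replicate number, and each library left out. Leaving out the libraries numbered 1 and 2, or 3 and 4, was added after seeing the data. The same-numbered microglia and neuron-labelled libraries deviated together from their group means (5 correlations across genes of 0.216 to 0.382). Those of microglia with astrocytes (-0.011 to 0.249) and of neuron-labelled libraries with astrocytes (-0.0329 to 0.233) were not all above 0.1. The labels do not say what the numbers stand for, and libraries of different numbers were not correlated. Whether the numbers pair libraries is therefore not known.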

Additional observations from a re-analysis of the deposited data

Results flagged for a closer look

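Single libraries stood apart from the other 4 of their cell type by Dixon's test in 7 of 144 groups, and chance alone gives about 1 in 20. Among the 9 genes it was 3 of 27 groups. Il18 was at 605 TPM in astrocyte library 2, against 713 to 748 TPM in the other astrocyte libraries. Tnf was at 0.50 TPM in neuron-labelled library 2, against 0 to 0.05 TPM in the others of that label. Il6 was at 0.04 TPM in neuron-labelled library 5, with the others of that label listed at 0.

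Among the related genes, Osmr was at 3.28 TPM in neuron-labelled library 1, against 5.47 to 6.01 TPM in the others. Il1r2 was at 0.89 TPM in astrocyte library 5, against 0 to 0.25 TPM. Il18rap was at 0.39 TPM in microglia library 4, against 0.14 to 0.20 TPM. Naip5 was at 0.19 TPM in astrocyte library 3, against 0.02 to 0.06 TPM. Apart from the Il18 and Osmr values, each lay below 1 TPM.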

How the results depend on the processing

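Of 669 differences of the 9 genes recomputed under the alternatives, 668 kept their direction where called and their side of the threshold. The exception was Pycard between neuron-labelled libraries and astrocytes, so that without the libraries numbered 3 and 4 the number of the 9 genes called there was 1, against 2. Under the filter of 5 TPM, 7 genes were tested and called in each microglia comparison, since Tnf and Osm no longer passed. Leaving out 1 library at a time gave 9, 9 and 2 of the 9 genes called throughout. Over all genes it gave 5103 to 5410 calls between microglia and neuron-labelled libraries, 5522 to 5841 between microglia and astrocytes, and 3323 to 3512 between neuron-labelled libraries and astrocytes. With the replicate block the 9 genes gave 9, 9 and 2 calls and all genes 5256, 5694 and 3433, against 5245, 5672 and 3412 without it; it changed no call of the 9 genes. Median-of-ratios and quantile scaling moved the median log2 difference of all tested genes up by 0.51 and 0.44 between microglia and neuron-labelled libraries, and by 0.54 and 0.51 between microglia and astrocytes. With the constant of 0.1, the difference of Il6 between microglia and neuron-labelled libraries was 5.95 in place of 2.90. Among the other named genes, 2564 of 2610 values kept their call, 35 lost it and 11 gained it, with none reversed. TPM near 0 cannot be told from no expression without the depth.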

Other observations

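Some pathway genes outside the naming rule, chosen after their values were seen, were abundant in microglia. Ninj1, which ruptures the plasma membrane late in lytic cell death, averaged 205 ± 19.5 TPM in microglia, 91.5 ± 21.5 TPM in neuron-labelled libraries and 84.3 ± 2.94 TPM in astrocytes (SD, n = 5 each). Its log2 difference was 1.18 (SE 0.136, adjusted p = 5.13e-07) against neuron-labelled libraries and 1.26 (SE 0.136, adjusted p = 1.79e-07) against astrocytes. Txnip, a thioredoxin-binding protein linked to NLRP3, averaged 184 ± 52.4 TPM in microglia, 56.8 ± 16.5 TPM in neuron-labelled libraries and 30.3 ± 4.17 TPM in astrocytes, with log2 differences of 1.68 (SE 0.205, adjusted p = 9.96e-07) and 2.53 (SE 0.205, adjusted p = 4.21e-09). Il27, which encodes the p28 chain of interleukin-27, was at 2.56 to 3.96 TPM in microglia, was listed at 0 in every neuron-labelled library, and was at 0 to 0.21 TPM in astrocytes.

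Il1rl1, the interleukin-33 receptor, did not pass the filter on low values. It was at 0.58, 4.98, 0.62, 1.74 and 0.57 TPM in microglia libraries 1 to 5, and at or below 0.03 TPM in neuron-labelled libraries and 0.13 TPM in astrocytes. One library thus held most of the microglia signal of this gene.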
